A study of Mus musculus with 6 samples.

Results

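The genes of the constitutive proteasome were followed across the cells of mouse skin. All measured genes whose symbols start with Psma, Psmb, Psmc, Psmd, Psme or Psmf and a digit were taken, except the immunoproteasome genes Psmb8, Psmb9 and Psmb10, which gave 43 of 16158 genes. They comprise 8 genes of the 20S alpha ring, 8 of the beta ring, 6 ATPases and 11 other subunits of the 19S cap, 3 cap assembly chaperones, 4 activators, the inhibitor Psmf1, and 2 genes matched by name, Psmc3ip and Psme2b. Psmc3ip is a recombination factor named for a binding partner, and Psme2b is a copy of Psme2 whose reads may not be separable from those of Psme2.

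Skin treated with 4-OH-Tam was dissociated and profiled cell by cell with the 10x Genomics 5′ chemistry. All 6 mice were of the NINJA strain, a line built for inducible neoantigen expression, and were 6 to 12 weeks old. The groups were NO_AG (antigen off), AG (antigen on) and AG_CPI (antigen on with CPI, not spelled out in the labels), each with 2 mice, labelled biological replicates. Per the labels, every mouse had been checked beforehand for visible skin pathology and for P14 CD8 T cells in the skin, so the groups hold mice with the phenotype looked for. The CD8 T class was not split into P14 and other cells. The labels do not give sex, the driver of the antigen switch or the dose of CPI.

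After filtering, 20464 of 21178 cells remained, and the 43 genes accounted for 63.1 to 77.5 of every 10000 UMIs (unique transcript molecules) of a library, or 40420 to 158292 UMIs. Libraries held 1736 to 4961 cells. Classes of cells named from markers carry the suffix -like. All CD8 T and keratinocyte-like libraries held their defining markers Cd3e and Krt14, at 12.4 to 18.1 and 78.0 to 118 UMIs per 10000. Library AG_CPI 1 stood apart: outside its T-like cells 92 UMIs of the Y-linked gene Ddx3y were found, against 0 in each of the other 5 libraries, and its keratinocyte-like cells numbered 176. Of 20921 distinct cell barcodes, 255 occurred in more than 1 library. Because keratinocyte-like cells of different mice fell into different clusters, only 3 of the 14 keratinocyte-like clusters had at least 10 cells in every mouse.

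The 20S core is a barrel of alpha and beta rings that holds the protease sites inside. Psmb5, Psmb6 and Psmb7 carry those sites in the constitutive form, and interferon-inducible Psmb8, Psmb9 and Psmb10 replace them in the immunoproteasome. The 19S cap recognises ubiquitin-tagged proteins and unfolds them with its ATPases, whereas Psme1 and Psme2 together form a ring-shaped activator that is also induced by interferon-gamma. Skin cells use this machinery for protein turnover and to make peptides for class I presentation.

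The first question was whether the constitutive genes differed with antigen in keratinocyte-like cells. The pair of interferon-inducible activator genes rose, while no subunit of the core or cap passed the test. Psme1, the alpha subunit of the activator, stood at 2.21 and 2.53 UMIs per 10000 in the NO_AG mice, at 4.37 and 4.41 in the AG mice, and at 2.81 and 3.13 in the AG_CPI mice. The beta subunit Psme2 stood at 2.89 and 3.34 UMIs per 10000 in NO_AG mice, at 6.27 and 5.78 in AG mice, and at 4.34 and 3.69 in AG_CPI mice. For both genes the AG mice lay above all other mice and the NO_AG mice lay lowest.

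The log2 fold change of AG against NO_AG was 0.95 ± 0.15 (SE, n = 2 against 2 mice) for Psme1, with a limma adjusted p of 0.0454. It was 1.02 ± 0.17 (SE) for Psme2, with a limma adjusted p of 0.0496. These 2 were the only members called among 41 tested, where 0.636% of all 8174 genes tested were called higher. Psma8, a testis alpha subunit, and Psmb11, a beta subunit of the thymic cortex, did not pass the filter on low values: Psma8 had 0 UMIs and Psmb11 had 1 UMI in these cells. Both calls were lost when any 1 of the 6 libraries was left out, with log2 fold changes of 0.89 to 1.01 for Psme1 and 0.93 to 1.11 for Psme2. They were also lost with the deposited scaling alone, a pseudocount of 0.5, no filter on low values, doublets kept or Leiden resolution 0.5, where the log2 fold changes stayed above 0 and, over all alternatives, adjusted p from limma reached 0.532 and 0.513. An exact permutation of 2 against 2 mice cannot give a p below 0.333, so the calls depend on variance that limma pools over genes.

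**Figure D1:**
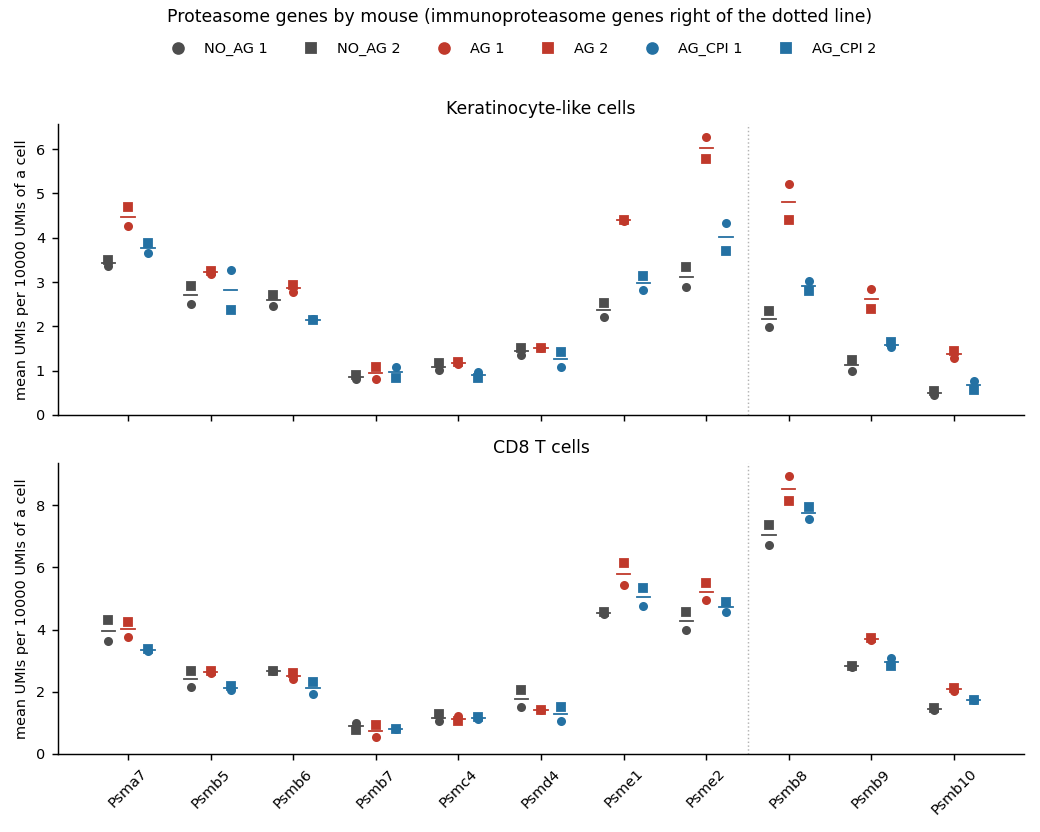
Mean UMIs per 10000 UMIs of a cell (y axis) for 8 constitutive genes and, right of the dotted line, 3 immunoproteasome genes (x axis), in keratinocyte-like cells above and CD8 T cells below. Each point is a mouse, horizontal bars are group means, and colours mark the groups. In keratinocyte-like cells Psme1 was 4.37 and 4.41 in the AG mice, above all other mice, whereas the values of Psmb7 lay between 0.82 and 1.09 in all 6.

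The 2 called genes lie tail to tail on chromosome 14 of the mm10 build, at chr14:55578123-55581529 on the plus strand for Psme1 and chr14:55587441-55591113 on the minus strand for Psme2, with 5911 bases between them. Upstream sequence is shown for these genes, for Psmb8 as an immunoproteasome gene that rose with them, and for Psmb5 and Psmb6, constitutive catalytic genes that were not called. The 150 bases before the transcript start are given 5′ to 3′ from RefSeq, build GRCm38.p6, of which the first listed start was used for Psme2. The RefSeq starts differ from the outermost GENCODE starts: they lie 371 bases further downstream for Psme1, 474 for Psmb8, 27 for Psmb5 and 12 for Psme2. The windows of Psme1 and Psmb8 therefore lie inside the GENCODE gene bounds. Windows of 250 bases from the same starts do so too, so sequence before those 2 outermost starts was not searched. Capitals mark a match to the interferon-gamma-activated site TTCNNNGAA, the interferon response core (GAAA, any 2 bases, GAAA) or the antioxidant element TGACNNNGC on either strand.
Psme1, chr14:55578344-55578493, plus strand: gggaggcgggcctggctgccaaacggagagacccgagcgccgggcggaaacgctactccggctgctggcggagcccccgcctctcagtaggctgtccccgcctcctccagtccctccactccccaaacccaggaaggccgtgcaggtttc
Psme2, chr14:55591102-55591251, minus strand: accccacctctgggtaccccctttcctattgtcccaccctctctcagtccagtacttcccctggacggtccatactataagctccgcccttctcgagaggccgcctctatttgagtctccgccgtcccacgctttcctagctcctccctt
Psmb8, chr17:34198045-34198194, plus strand: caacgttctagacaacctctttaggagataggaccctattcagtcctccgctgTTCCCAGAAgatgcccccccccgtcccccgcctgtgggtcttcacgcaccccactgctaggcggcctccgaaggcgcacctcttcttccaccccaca
Psmb5, chr14:54617996-54618145, minus strand: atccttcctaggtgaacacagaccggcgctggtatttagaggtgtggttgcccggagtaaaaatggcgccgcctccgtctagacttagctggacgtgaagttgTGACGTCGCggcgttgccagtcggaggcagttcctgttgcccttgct
Psmb6, chr11:70525207-70525356, plus strand: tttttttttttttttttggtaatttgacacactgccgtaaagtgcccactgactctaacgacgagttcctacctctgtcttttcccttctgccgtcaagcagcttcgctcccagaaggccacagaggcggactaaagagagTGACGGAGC

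In the 250 bases before the start, 36 of the 43 members had an entry. The interferon-gamma-activated site was found in 0 of these 36 and in 8.13% of 27025 genes. Of the immunoproteasome genes it was found in Psmb8 only, and not in Psmb9, which was also called higher in AG mice. The interferon response core was found in 3 members, Psmb3, Psmd4 and Psmd9, and in 3.46% of all genes. The looser form of that core (GAAA, any 3 bases, AAA), which includes every match of the stricter one, was found in these 3, in Psma2 and Psma3, and in 12.6% of all genes. The CCAAT box was found in 14 members and in 37.5% of all genes. The antioxidant element, the motif bound by NRF factors that control proteasome genes, was found in 5 members, Psmb5, Psmb6, Psmc6, Psmd12 and Psmd9, and in 11.5% of all genes. A motif match describes the letters and is no evidence of binding, and the absence of one in Psme1 and Psme2 speaks only of this window before the RefSeq start.

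Over the whole module, Psme1 and Psme2 included, the log2 fold change of AG against NO_AG in keratinocyte-like cells was above 0 for 38 of the 41 members, with a median of 0.23, against a median of 0.00 and 49.7% above 0 among all genes tested. All 7 tested alpha subunits and all 7 tested beta subunits lay above 0, with medians of 0.31 and 0.33. The ATPases had a median of 0.17 and the other cap subunits 0.14. None of these core and cap genes had an adjusted p below 0.05, and at an unadjusted p below 0.05 there were 7 members, Psme1 and Psme2 included, and 740 of the 8174 genes.

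In the deposited scale both AG mice lay above both NO_AG mice for 20 of the 41 members, where 16.6% of all genes tested did so. These 20 included 7 alpha subunits, Psmb2 to Psmb6, Psmc1, Psmd1, Psmd2, Psmd7, the chaperone Psmd9, and Psme1, Psme2 and Psme2b. Psma7, an alpha subunit, had 3.35 and 3.49 UMIs per 10000 in NO_AG mice, 4.27 and 4.68 in AG mice, and 3.65 and 3.89 in AG_CPI mice. Its groups did not overlap, but its log2 fold change of 0.46 ± 0.14 (SE) had a limma adjusted p of 0.338. Psme2b gave 0.55 ± 0.18 (SE), limma adjusted p 0.382, at only 5 to 95 UMIs per mouse.

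None of the constitutive catalytic genes was called. Psmb5, the chymotrypsin-like subunit, stood at 2.51 and 2.91 UMIs per 10000 in NO_AG mice and 3.19 and 3.26 in AG mice. Psmb6, the caspase-like subunit, stood at 2.46 and 2.71 in NO_AG mice and at 2.78 and 2.94 in AG mice. Psmb7, the trypsin-like subunit, stood at 0.82 and 0.91 in NO_AG mice and at 0.82 and 1.09 in AG mice. The values of Psmb7 overlapped between the groups and those of Psmb5 and Psmb6 did not, and the 3 log2 fold changes were 0.33 ± 0.19, 0.23 ± 0.14 and 0.19 ± 0.19 (SE), in that order, with limma adjusted p of 0.675, 0.718 and 0.830.

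Apart from Psme1 and Psme2, members of other roles were not called either. Psmd11, a cap scaffold subunit, stood at 1.52 and 1.56 UMIs per 10000 in the NO_AG mice and at 1.61 and 1.31 in the AG mice, a log2 fold change of 0.01 ± 0.18 (SE). Psmb1, a beta subunit without a protease site, stood at 3.47 and 3.57 against 3.61 and 3.48, and the inhibitor Psmf1 at 0.26 and 0.23 against 0.28 and 0.25. Psme3 stood at 0.38 and 0.50 against 0.43 and 0.58, and Psme4 at 0.52 and 0.57 against 0.43 and 1.03. The groups overlapped for each of these 5 genes. The ubiquitin receptor Psmd4, the deubiquitinase Psmd14 and the ATPase Psmc4 gave log2 fold changes of 0.14, 0.18 and 0.17, with SE of 0.17, 0.16 and 0.16.

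By contrast, all 3 immunoproteasome genes, which are no members, were called higher in AG mice. Psmb8 rose from 1.99 and 2.35 to 5.22 and 4.41 UMIs per 10000, with a log2 fold change of 1.20 ± 0.17 (SE) and a limma adjusted p of 0.0269. Psmb9 and Psmb10 gave 1.24 ± 0.17 and 1.40 ± 0.18 (SE), with limma adjusted p of 0.0262 and 0.0179. The summed UMIs of Psmb8, Psmb9 and Psmb10, divided by those of Psmb5, Psmb6 and Psmb7, gave 0.592 and 0.632 in NO_AG mice, 1.38 and 1.13 in AG mice, and 0.815 and 0.936 in AG_CPI mice. The ratio was therefore highest in both AG mice, at a denominator of 5.80 and 6.53 UMIs per 10000 in NO_AG mice and 6.79 and 7.29 in AG mice.

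In AG keratinocyte-like cells none was called among the 7 assembly genes, the 4 transcriptional regulators (Nfe2l1, Nfe2l2, Ddi2 and Ngly1) or the 12 ubiquitin and shuttle genes, whose medians were 0.22, -0.05 and 0.11. Nfe2l1, which drives proteasome gene transcription when proteasome activity falls, had a log2 fold change of 0.02 ± 0.20 (SE).

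Markers of other cells and the make-up of the class moved with the groups. Summed T cell markers in keratinocyte-like cells were 0.34 and 0.88 UMIs per 10000 in NO_AG mice, 1.19 and 3.33 in AG mice, and 1.71 and 4.84 in AG_CPI mice, against 77.9 to 104 in CD8 T cells. The mitochondrial share of UMIs in keratinocyte-like cells was 3.48% and 3.56% in the NO_AG mice, 3.38% and 5.30% in the AG mice, and 4.81% and 4.89% in the AG_CPI mice, so AG 2 and both AG_CPI mice were highest, and its part in the results was not tested. A cluster of 559 cells from AG 2 had at most 16 cells in any other mouse. With only the 3 clusters of every mouse, at equal weight, Psme1 gave 0.87 ± 0.16 (SE, limma adjusted p 0.0704) and Psme2 gave 0.96 ± 0.15 (SE, limma adjusted p 0.0439), and the median over the members was 0.13. Median depth in keratinocyte-like cells was 2567 UMIs per cell in AG 2 against 5516 to 6860 in AG 1 and NO_AG. In cells thinned to 1500 UMIs the log2 fold changes of Psme1 and Psme2 were 0.90 and 1.03, and a call was lost.

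The activator pair was also followed within the named keratinocyte-like subtypes, which were not tested between groups. The summed level of Psme1 and Psme2 in basal keratinocyte-like cells was 6.61 and 7.16 UMIs per 10000 in NO_AG mice and 16.2 and 14.0 in AG mice, the latter from 160 and 22 cells. Of these AG cells, 110 and 19 came from a cluster with only 5 and 3 cells of the NO_AG mice. Cxcl10 and Gbp2 were among its leading genes. The basal cells of the 2 groups were thus largely from different clusters. In hair follicle keratinocyte-like cells it was 2.84 and 4.27 in NO_AG mice, 6.20 and 9.62 in AG mice, and 3.88 and 4.09 in AG_CPI mice. Cycling keratinocyte-like cells gave 6.95 and 8.62 in NO_AG mice and 16.5 and 10.2 in AG mice. In each of these 3 subtypes both AG mice lay above both NO_AG mice, and the share of all genes that did so was not counted.

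**Figure D2:**
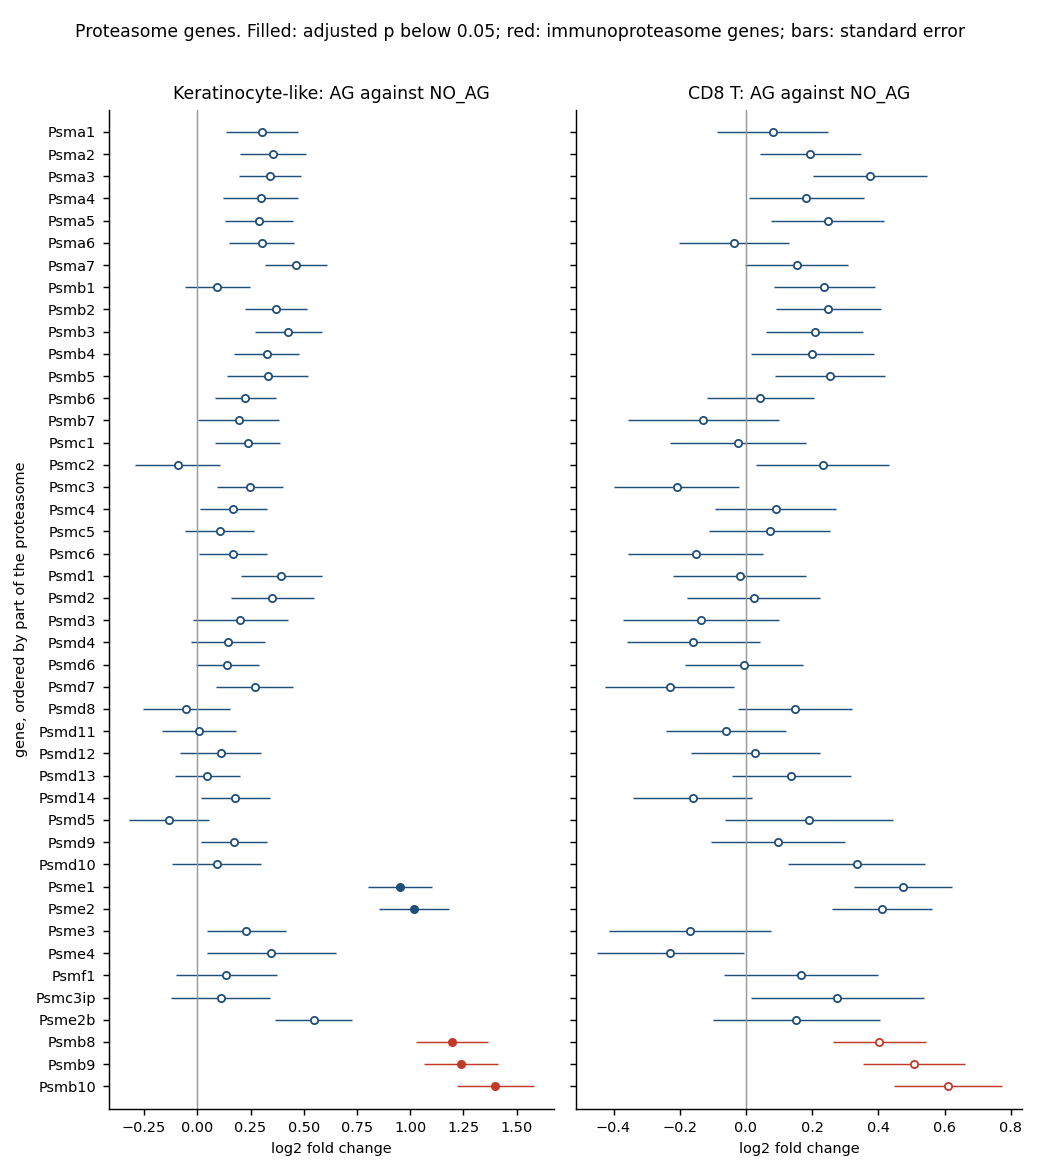
Log2 fold change of AG against NO_AG (x axis) for each tested constitutive gene and the 3 immunoproteasome genes (y axis), in keratinocyte-like cells on the left and CD8 T cells on the right, each with its own x scale. Points are limma estimates from 2 against 2 mice, bars are standard errors, and filled points have an adjusted p below 0.05. In keratinocyte-like cells Psme1 (0.95), Psme2 (1.02), Psmb8 (1.20), Psmb9 (1.24) and Psmb10 (1.40) are filled, and in CD8 T cells none is.

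In CD8 T cells no member was called between AG and NO_AG, where 1.94% of 7235 genes were called in either direction. The largest positive log2 fold changes among the 41 members tested were again those of Psme1, 0.47 ± 0.15 (SE, limma adjusted p 0.156), and Psme2, 0.41 ± 0.15 (SE, limma adjusted p 0.238). The largest negative ones were -0.23 ± 0.19 for Psmd7, a cap subunit that partners the deubiquitinase, and -0.23 ± 0.22 (SE) for Psme4, a large activator of the core. Psme1 stood at 4.49 and 4.56 UMIs per 10000 in NO_AG mice, at 5.43 and 6.13 in AG mice, and at 4.75 and 5.35 in AG_CPI mice. Psme1 and Psme2 were among 5 members whose AG mice lay above both NO_AG mice, where 15.8% of all genes tested did so.

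The median log2 fold change of the members in CD8 T cells was 0.10 against 0.04 over all genes. An unadjusted p below 0.05 was reached by 3 of the 41 members and by 981 of the 7235 genes. Psmb8, Psmb9 and Psmb10 gave 0.40, 0.51 and 0.61, with limma adjusted p of 0.210, 0.139 and 0.0910. The ratio of immunoproteasome to constitutive catalytic UMIs was 1.89 and 1.91 in NO_AG mice, 2.63 and 2.25 in AG mice, and 2.58 and 2.36 in AG_CPI mice. It exceeded the keratinocyte-like ratio in every mouse. The share of CD8 T cells in the cycling T-like cluster ranged from 8.30% to 22.9%, both extremes in the AG group.

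Whether the antigen difference itself differed between the 2 cell classes was tested as keratinocyte-like minus CD8 T. No member was called, where 0.825% of 9207 genes were. Psme2 had the largest positive difference of log2 fold changes, 0.54 ± 0.19 (SE, limma adjusted p 0.332), followed by Psme4 at 0.53 ± 0.28 (SE, limma adjusted p 0.505). The largest negative differences were those of the ATPase Psmc2, -0.38 ± 0.24, and the chaperone Psmd5, -0.37 ± 0.27 (SE). Of the members 2 had an unadjusted p below 0.05, Psme1 and Psme2, as did 1039 of all genes. A greater response of the activator genes in keratinocyte-like cells than in CD8 T cells was thus not established at this number of mice.

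In ILC2-like cells, which had enough cells in the NO_AG and AG mice only, no member of 37 tested was called, and none had an unadjusted p below 0.05, which 222 genes had. The share of all 4549 genes called was 0.022%. Psmd2 and Psmd6, cap subunits, had the largest positive log2 fold changes, 0.47 ± 0.30 and 0.36 ± 0.29 (SE). Psmd10, a chaperone of cap assembly, and the ATPase Psmc3 had the largest negative ones, -0.60 ± 0.48 and -0.43 ± 0.28 (SE). Psme2 stood at 4.58 and 5.36 UMIs per 10000 in NO_AG mice and at 5.17 and 4.76 in AG mice, so its groups overlapped. The number of AG 2 cells was 45.

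The comparison of AG_CPI with AG asked how the genes stood when CPI was added. In keratinocyte-like cells no gene at all was called (0% of 8174), although 855 genes and 6 members had an unadjusted p below 0.05. The members had a median log2 fold change of -0.25 against -0.03 over all genes, and 34 of the 41 lay below 0. Psme2 at -0.58 ± 0.17 and Psme1 at -0.56 ± 0.15 (SE) were the largest negative values, with limma adjusted p of 0.401 and 0.400. Psme3, the nuclear activator, and Psme4 were the largest positive ones, at 0.16 ± 0.19 and 0.16 ± 0.30 (SE). Both AG_CPI mice lay below both AG mice for 21 members, where 19.6% of all genes did.

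This comparison shares the AG mice with the one of AG against NO_AG, so the values are not independent of each other. The AG_CPI mice can be set against NO_AG directly. In keratinocyte-like cells no member was called there (0.759% of 8174 genes were), the median of the members was 0.03, and 22 lay above 0. Psme4 at 0.51 ± 0.30 and Psme2 at 0.43 ± 0.17 (SE, limma adjusted p 0.457 and 0.260) were highest, and Psmd11, a cap scaffold subunit, and Psmc2 were lowest at -0.38 ± 0.18 and -0.35 ± 0.20 (SE). Without AG_CPI 1, the library that stood apart, Psme2 gave 0.31 ± 0.18 (SE, limma adjusted p 0.417), and no member was called. Psmb5 differed between the 2 AG_CPI mice, at 3.27 and 2.38 UMIs per 10000.

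In CD8 T cells no member was called between AG_CPI and AG (0.18% of genes called, 0 members and 397 genes with an unadjusted p below 0.05), or between AG_CPI and NO_AG (3.86% of genes called, 1 member and 1231 genes with an unadjusted p below 0.05). Against AG, the largest negative values were those of the cap subunits Psmd6 (-0.36 ± 0.18) and Psmd7 (-0.33 ± 0.19), and the largest positive ones those of Psme4 (0.25 ± 0.22) and the deubiquitinase Psmd14 (0.11 ± 0.18, all SE). Against NO_AG, Psmd7 gave -0.56 ± 0.19 (SE, limma adjusted p 0.147) and Psme3 -0.39 ± 0.24, while Psme1 and the alpha subunit Psma5 both gave 0.26 with SE of 0.15 and 0.17. Psmd7 stood at 1.52 and 1.15 UMIs per 10000 in NO_AG mice, 0.95 and 1.08 in AG mice, and 0.75 and 0.84 in AG_CPI mice, so that both AG_CPI mice lay below all other mice. How many of all genes did the same was not counted.

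Both AG_CPI mice lay below both AG mice for 17 of the 41 members in CD8 T cells, where 16.4% of all genes did so. Summed keratinocyte markers in CD8 T cells moved with this comparison, at 5.37 and 4.98 UMIs per 10000 in the AG mice and 2.68 and 2.93 in the AG_CPI mice, with 4.82 and 4.76 in the NO_AG mice, against 337 to 463 in keratinocyte-like cells. Their part in the result was not tested. The median of the members was -0.14 against 0.00 over all genes. Psmb5 was one of them, at 2.06 and 2.18 UMIs per 10000 in AG_CPI mice and 2.59 and 2.67 in AG mice, yet its log2 fold change of -0.32 ± 0.17 (SE) had a limma adjusted p of 0.949. The difference of these contrasts between keratinocyte-like and CD8 T cells called no member, for AG_CPI against AG (0.0217% of genes called) or against NO_AG (1.81% of genes called). In the first, Psme3 (0.41 ± 0.33) and Psmd6 (0.29 ± 0.22) were highest and Psme2 (-0.38 ± 0.19) and Psma4 (-0.36 ± 0.22) lowest. In the second, Psme3 (0.75 ± 0.33) and Psmd2 (0.50 ± 0.23) were highest and Psmc3ip (-0.53 ± 0.28) and Psmd10 (-0.43 ± 0.28, all SE) lowest, and Psme3 and Psmd2 alone among the members had an unadjusted p below 0.05, as did 1539 of all genes.

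Monocyte/macrophage-like cells were numerous enough in the AG and AG_CPI mice only. No member of 40 tested was called between these groups (0.56% of 6608 genes called), and 2 members and 477 genes had an unadjusted p below 0.05. The 2 members were Psmd1, a cap scaffold subunit, at 0.58 ± 0.21 (SE, limma adjusted p 0.487), and Psme2b at -0.55 ± 0.25 (SE, limma adjusted p 0.650). Psme4 at 0.41 ± 0.26 and Psmf1 at -0.37 ± 0.25 (SE) followed. Psme1 stood at 9.49 and 8.16 UMIs per 10000 in AG mice and at 6.92 and 7.66 in AG_CPI mice, and its log2 fold change was -0.27 ± 0.20 (SE).

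The second question was how the module differed between cell classes of the same mice. Between keratinocyte-like and CD8 T cells the summed level hardly differed, but single subunits did. The 43 genes summed to 59.0 to 76.1 UMIs per 10000 in keratinocyte-like cells and to 62.9 to 72.9 in CD8 T cells over the 6 mice. In the test with the mouse as a block, 9 of the 41 members tested were higher and 9 were lower in keratinocyte-like cells, where 35.5% of 9207 genes were higher and 31% lower. Both counts lie below these background shares. The median log2 difference was -0.01 for the members and 0.03 for all genes.

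The higher genes were cap genes and an activator: the ATPases Psmc1, Psmc5 and Psmc6, the cap subunits Psmd1, Psmd2, Psmd3, Psmd7 and Psmd12, and Psme4. Psme4, which is linked to chromatin and repair, stood at 0.43 to 1.03 UMIs per 10000 in keratinocyte-like cells and at 0.20 to 0.34 in CD8 T cells, higher in 6 of 6 mice. Its log2 difference was 0.89 ± 0.13 (SE, n = 6 mice, limma adjusted p 6.02e-05). Psmd7 stood at 1.32 to 2.09 in keratinocyte-like cells and at 0.75 to 1.52 in CD8 T cells, a log2 difference of 0.68 ± 0.10 (SE, limma adjusted p 0.0001), higher in 6 of 6 mice. Psmc5 and Psmd12 gave 0.40 ± 0.08 and 0.37 ± 0.09 (SE), each higher in 6 of 6 mice.

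The lower genes were the alpha subunits Psma1 and Psma2, the beta subunits Psmb1 and Psmb3, the cap subunits Psmd13 and Psmd14, the chaperone Psmd10, and Psme1 and Psme2b. Psmb3 stood at 3.08 to 4.56 UMIs per 10000 in keratinocyte-like cells and at 5.25 to 6.14 in CD8 T cells, without overlap, and its log2 difference was -0.69 ± 0.08 (SE, limma adjusted p 9.67e-06). Psme1 gave -0.74 ± 0.09 (SE, limma adjusted p 1.02e-05), Psmd13 -0.62 ± 0.10 and Psma2 -0.45 ± 0.07 (SE), each lower in 6 of 6 mice. Psme2, in contrast to its partner, gave -0.22 ± 0.10 (SE, limma adjusted p 0.0772). In the beta ring Psmb3 thus stood beside the catalytic Psmb5 (0.21 ± 0.09, limma adjusted p 0.0596), Psmb6 (-0.01 ± 0.08) and Psmb7 (0.13 ± 0.10, all SE), which were not called.

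Psmb8, Psmb9 and Psmb10 were lower in keratinocyte-like than in CD8 T cells by log2 differences of -1.35 ± 0.11, -0.93 ± 0.11 and -1.14 ± 0.13 (SE), each in 6 of 6 mice. Of the transcriptional regulators, Nfe2l1, Nfe2l2 and Ddi2, the protease that activates the Nfe2l1 product, were higher in keratinocyte-like cells, with log2 differences of 1.18, 1.22 and 1.08. Against the same background of 35.5% of genes higher and 31% lower, nothing particular is read from the counts of the assembly and ubiquitin lists. Of the 7 assembly genes 3 were higher and none lower, Psmg1 at 0.63, Psmg3 at 0.37 and Sem1, a small cap subunit, at 0.27. Of the 12 ubiquitin and shuttle genes 4 were higher, among them Ubqln1 at 0.63, and 3 were lower, among them the polyubiquitin gene Ubb at -0.96.

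**Figure D3:**
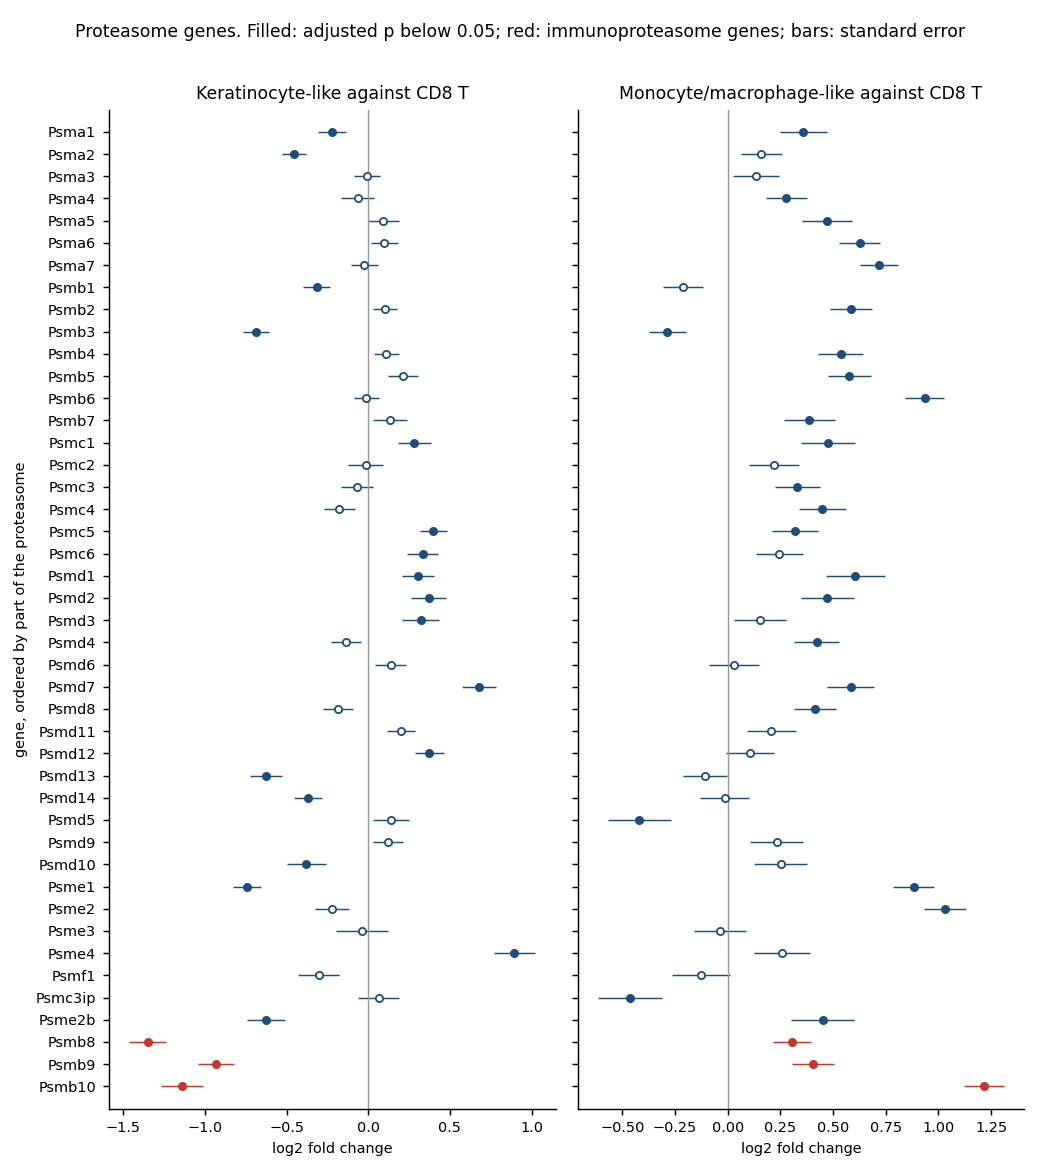
Log2 difference (x axis) of keratinocyte-like cells (left, 6 mice) and monocyte/macrophage-like cells (right, 4 mice) against CD8 T cells for each tested constitutive gene and the 3 immunoproteasome genes (y axis). Points are limma estimates with the mouse as a block, bars are standard errors, and filled points have an adjusted p below 0.05. On the left filled members lie on both sides of 0, from Psme1 at -0.74 to Psme4 at 0.89. On the right 22 filled members lie above 0 and 3 below, a split that became 8 and 8 on the deposited scaling alone.

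Against CD8 T cells, monocyte/macrophage-like cells had 22 members higher and 3 lower of 41 tested in 4 mice, where 31.4% of 8042 genes were higher and 29.7% lower. This split depended on the scaling: with the deposited scaling alone 8 were higher and 8 lower, the median of the members moved from 0.32 to 0.02, and the median of all genes moved from -0.02 to -0.25. Of the 33 members above 0, 11 then lay below 0, among them Psma4, which had been called higher. With clusters drawn at Leiden resolution 0.5, 8 were higher and 3 lower. The median over the members exceeded that over all genes under each of these settings.

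Psme2 stood at 9.53, 7.83, 7.54 and 7.86 UMIs per 10000 in the monocyte/macrophage-like cells of AG 1, AG 2, AG_CPI 1 and AG_CPI 2. These cells and CD8 T cells, at 4.55 to 5.49 in the same mice, did not overlap. Its log2 difference was 1.03 ± 0.10 (SE, n = 4 mice, limma adjusted p 4.63e-07), and that of Psme1 was 0.88 ± 0.10 (SE, limma adjusted p 1.94e-06); both were called in all alternatives, the deposited scaling included. The catalytic subunit Psmb6 gave 0.93 ± 0.09 and the alpha subunit Psma7 0.72 ± 0.09 (SE), each higher in 4 of 4 mice. The lower members were Psmb3 at -0.29 ± 0.09, Psmd5 at -0.42 ± 0.15 and the recombination factor Psmc3ip at -0.46 ± 0.15 (SE). Of the immunoproteasome genes, Psmb10 was 1.22 ± 0.10 (SE) higher, Psmb9 0.40 ± 0.10 and Psmb8 0.30 ± 0.09 (SE), and with the deposited scaling alone these became 0.90, 0.09 and -0.017, of which Psmb10 alone was called. The immunoproteasome ratio was 2.50, 1.85, 2.11 and 1.93 in the 4 mice.

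Within keratinocyte-like cells, those in the cycling cluster were compared with basal ones in 4 mice. Psma3, an alpha subunit, was the only member called, where 7.13% of 7909 genes were called higher. It stood at 3.53, 3.82, 4.60 and 3.23 UMIs per 10000 in cycling cells of NO_AG 1, NO_AG 2, AG 1 and AG 2, and at 2.37, 2.51, 3.16 and 2.56 in basal cells of the same mice. The log2 difference was 0.43 ± 0.10 (SE, n = 4 mice, limma adjusted p 0.0302), higher in 4 of 4 mice. The members had a median of 0.23 against -0.01 over all genes, and 32 of 41 lay above 0.

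The count changed whichever 1 library was left out. Without AG 2, whose basal cells numbered 22, 18 members were called higher, along with 1185 of 7891 genes. Without any 1 of the other 3 mice no member was. All 7 tested alpha subunits and all 6 ATPases lay above 0, the ATPase Psmc1 highest at 0.59 ± 0.17 (SE, limma adjusted p 0.0588). Of the 4 activators none was called: Psme1 gave -0.34 ± 0.11 (SE, limma adjusted p 0.0912), Psme3 -0.19 ± 0.18, Psme4 -0.12 ± 0.18 and Psme2 0.06 ± 0.13 (SE). Of the immunoproteasome genes Psmb9 alone was called, at 0.67 ± 0.15 (SE, limma adjusted p 0.0234).

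Across the broad classes, levels were set side by side in the 2 NO_AG mice, in which 9 classes had at least 10 cells in both. This is a description with no test. Of 38 members with a mean of at least 0.5 UMIs per 10000 in some class, 20 were highest in sebocyte-like cells. Of the others, 4 each were highest in CD8 T, melanocyte-like and endothelial-like cells, 3 in T-like cells outside the CD8 T class, 2 in fibroblast-like cells and 1 in keratinocyte-like cells. The lowest class was dendritic/Langerhans-like or endothelial-like for 12 members each and fibroblast-like for 11. For 7 members, Psma3, Psma6, Psmb5, Psmb7, Psmd6, Psme2 and Psme4, both sebocyte-like values lay above both values of each other class. These levels are on the deposited scale, and the share of all genes highest in sebocyte-like cells was not counted. Nothing particular to the members is therefore read from these counts.

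The summed level was 75.9 and 87.5 UMIs per 10000 in sebocyte-like cells of NO_AG, against 59.0 and 65.5 in keratinocyte-like and 48.0 and 49.6 in dendritic/Langerhans-like cells. Psmb5 stood at 3.89 and 3.55 in sebocyte-like cells and at 2.51 and 2.91 in keratinocyte-like cells. In these same sebocyte-like cells the immunoproteasome ratio was 0.240 and 0.270, below the 0.592 and 0.632 of keratinocyte-like cells. Only fibroblast-like cells, at 0.359 and 0.186, were in the same range, and the fibroblast-like values rest on 71 and 22 cells. Median depth was 2085 and 2134 UMIs per cell in sebocyte-like cells and 5516 and 6279 in keratinocyte-like cells of these mice, and its part in the difference was not tested.

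**Figure D4:**
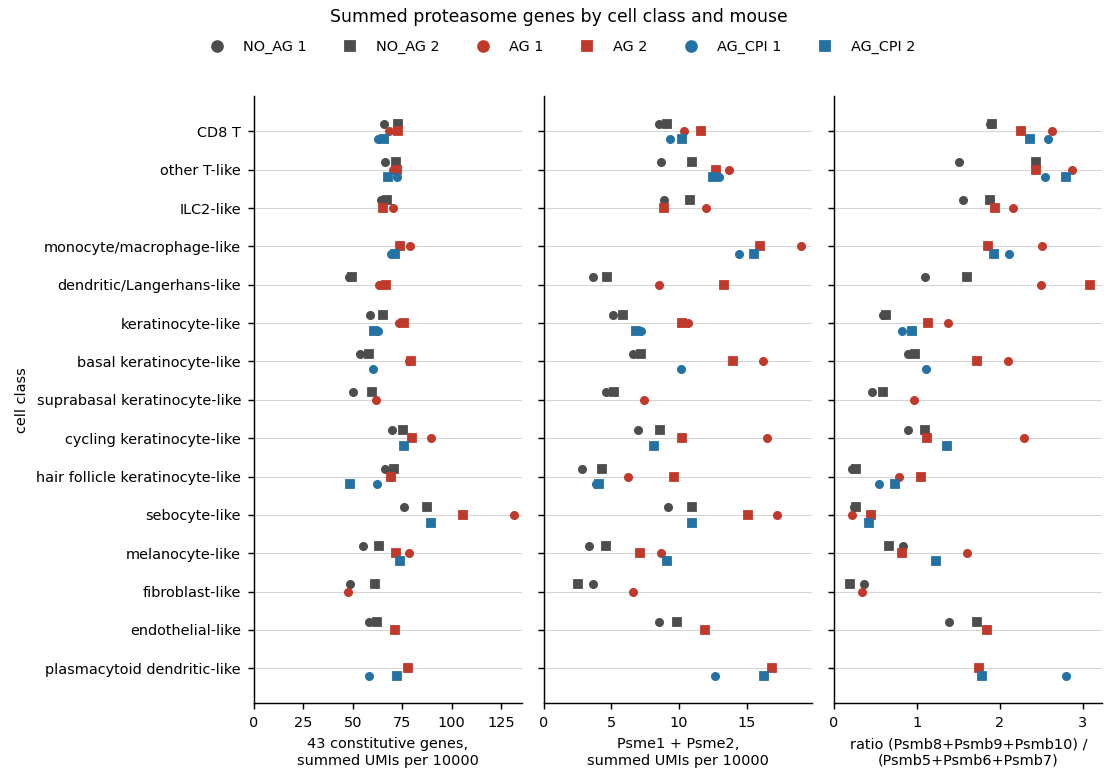
Summed UMIs per 10000 of the 43 constitutive genes (left) and of Psme1 and Psme2 (middle), and the ratio of immunoproteasome to constitutive catalytic UMIs (right), by cell class (y axis). Each point is a mouse with at least 10 cells of the class, and colours mark the groups. Within each group the sebocyte-like cells have the highest sums on the left, 75.9 to 131 over all groups, and low ratios on the right, 0.218 to 0.445.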

How the data were processed

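Single-cell transcriptomes of 6 skins were analysed. Per the submitters' processing notes, Cell Ranger 3.1 and the mm10 build were used. The authors deposited log10 values with 1 added, where each gene is scaled to 10000 UMIs per cell. This unit was read from the values themselves. Once inverted, with the smallest value of a cell taken as 1 UMI, all lay within 0.05 UMIs plus 0.2% of the value from a whole number, a tolerance that excludes nothing above 225 UMIs. Cells with fewer than 200 genes or over 20% mitochondrial UMIs were dropped, and 663 probable doublets were removed by Scrublet score. Clustering (scanpy 1.11.5, Leiden resolution 1) left out 80 proteasome and pathway genes, so that the classes do not rest on the members. Of 48 clusters 31 were named from marker lists. The naming rule was revised once with the leading genes and cluster sizes in view, ahead of the gene tests, because a cycling cluster and a hair follicle cluster were misplaced by the first version.

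For each mouse and class with at least 10 cells, linear values were averaged over cells, TMM-scaled and, with 0.1 added as pseudocount, put on a log2 scale, so fold changes of low genes are understated. Genes needed 10 UMIs and a level of 0.1 in at least 2 libraries. The tests used limma 3.58.1 (trend) in R 4.3.3, with group as the only term, or the mouse as a block between classes (at least 4 mice). A gene was called where its p, adjusted over all genes by Benjamini-Hochberg, was below 0.05. The code was checked on simulated data. The members and lists were chosen with earlier results of these data known. Named in each comparison are the members called, or the 4 of smallest p in each direction where more than 8 were, or, where none was, the 2 largest log2 fold changes in each direction, beside a fixed set of genes for each role. Psme2b in AG keratinocyte-like cells, Psmc1 in cycling cells and Psmb5 between AG_CPI mice were singled out after their values were seen. Fibroblast-like comparisons and suprabasal against basal keratinocyte-like cells were not made, since too few mice had 10 cells. Gene positions are from GENCODE M21. In group comparisons the p-values rest on the spread between mice of a group. Between classes they rest on how the class difference varies over mice. In both, limma pools variance over genes. Fewer cells of a kind within a class and less RNA per cell cannot be told apart in class means. The class I presentation list is not reported here.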

Additional observations from a re-analysis of the deposited data

Results flagged for a closer look

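Outside the T-like clusters, library AG_CPI 1 held 92 UMIs of the Y-linked gene Ddx3y, above the 0 of both NO_AG libraries and of the other 3 libraries. Xist was detected in 3.92% of those cells of AG_CPI 1, against 67.0% to 85.4% in the other libraries. The labels give no sex. These counts leave out the T-like cells, so the CD8 T class was not examined in this respect. Group comparisons with AG_CPI in classes other than T cells therefore include a library that differs in this respect, and without it the number of members called in each of them was 0.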

How the results depend on the processing

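For AG against NO_AG in keratinocyte-like cells, the number of members called fell from 2 to 0 with the deposited scaling alone, a pseudocount of 0.5, no filter on low values, doublets kept or Leiden resolution 0.5, and to 1 in cells thinned to 1500 UMIs or with the keratinocyte-like clusters of every mouse at equal weight, an alternative chosen after the cluster sizes had been seen. It ranged from 0 to 0 with 1 mouse left out and stayed at 2 with sums of UMIs. Log2 fold changes over all 15 alternatives were 0.77 to 1.01 for Psme1 and 0.76 to 1.11 for Psme2, with limma adjusted p of 0.0178 to 0.532 and 0.0222 to 0.513. In ILC2-like cells, leaving out 1 mouse gave 0 to 1 members called, the 1 without AG 1. Monocyte/macrophage-like against CD8 T cells called 25 members, 16 with the deposited scaling alone and 11 at Leiden resolution 0.5; with the deposited scaling 11 of the 33 members above 0 fell below it, of which Psma4 (-0.035) alone had been called, and Psmb8 (-0.017), no member, also turned negative. Cycling against basal keratinocyte-like cells called 1 member, 2 with the deposited scaling alone, 3 at Leiden resolution 0.5, 2 with sums of UMIs, 0 in thinned cells, 0 with no block for the mouse, and 0 to 18 with 1 mouse left out. Keratinocyte-like against CD8 T cells called 13 to 21 members over 16 alternatives. In the remaining comparisons 0 members were called under every alternative run. The ratio in NO_AG CD8 T cells moved from 1.90 to 1.93 with sums of UMIs. The cause of these shifts was not tested.

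With the replicate number as a block, 2 members were called for AG against NO_AG in keratinocyte-like cells (Psme1 limma adjusted p 0.0488, Psme2 0.0421), and the block changed no other number of members called. The labels state no shared origin, and the replicate 1 minus 2 differences of the groups correlated at -0.24 to -0.01 in CD8 T and -0.06 to 0.10 in keratinocyte-like cells, so the numbers were not taken to pair the mice. Each group has 2 mice, and the part of depth in the errors was not separated from that of their number. The median SE of a member was 0.17 on the log2 scale in keratinocyte-like and 0.18 in CD8 T cells.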

Other observations

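Classes whose groups were not compared held further values, given here with no test. In dendritic/Langerhans-like cells the 43 genes summed to 48.0 and 49.6 UMIs per 10000 in the NO_AG mice and to 63.4 and 67.0 in the AG mice, from 35 and 36 cells in AG mice. Psme1 rested at 2.10 and 2.54 in NO_AG mice and 4.72 and 6.60 in AG there, and Psme2 at 1.53 and 2.11 in NO_AG mice and 3.79 and 6.73 in AG mice. The immunoproteasome ratio was 1.09 and 1.61 in NO_AG mice and 2.49 and 3.09 in AG mice. Both AG mice lay above both NO_AG mice in each of these, and the share of all genes that did so in this class was not counted. Median depth there was 4164 and 5423 UMIs per cell in NO_AG mice against 9011 and 7773 in AG mice, and its part was not tested.

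In sebocyte-like cells, lipid-producing cells of the gland of the hair follicle, the sum was 75.9 and 87.5 in NO_AG mice, 131 and 105.5 in AG (17 and 152 cells) and 89.8 in AG_CPI 2. Psmb5 stood at 3.89 and 3.55, at 6.47 and 6.23, and at 4.38 in the same order, and Psme2 at 6.22 and 6.89, at 11.9 and 9.81, and at 7.10. Median depth was 2085 and 2134 UMIs per cell in NO_AG mice, 8467 and 4890 in AG mice and 1784 in AG_CPI 2, and its part was not tested. In melanocyte-like cells the sum was 55.4 and 63.5 in NO_AG mice, 78.4 and 72.0 in AG mice and 73.9 in AG_CPI 2. In fibroblast-like cells it was 48.9 and 61.3 in NO_AG mice and 47.5 in AG 1. In T-like cells outside the CD8 T class Psme2 stood at 4.45 and 5.66 in NO_AG mice, 7.64 and 6.60 in AG mice, and 7.41 and 6.62 in AG_CPI mice, so that all 4 mice with antigen lay above the 2 without. How many of all genes were ordered this way was not counted. Psma8 had 8 UMIs in all monocyte/macrophage-like cells together and 0 in keratinocyte-like and CD8 T cells.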
